A study of Mus musculus with 9 samples.

Results

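The genes described here are 8 keratins of the interfollicular epidermis, the basal keratins Krt5, Krt14 and Krt15 and the suprabasal keratins Krt1, Krt10, Krt2, Krt77 and Krt78, chosen by symbol from probe sets assigned to exactly 1 gene. All 8 were measured, by 10 of 45037 probe sets, and they are 8 of 18193 genes with such a probe set. The epidermis came from hairless mice of the SKH1 background (5 backcross generations) that were homozygous for a floxed Alox12b allele, which encodes the epidermal 12R-lipoxygenase. Mice called Alox12b fl/fl Cre (5 arrays, genotype p/p +/cre) also carried a tamoxifen-dependent Cre-ERT2 recombinase under the keratin 14 promoter, so that recombination was directed to keratinocytes. Their littermates, called Alox12b fl/fl (4 arrays, genotype p/p +/+), carried the floxed alleles without Cre. Mice of both groups were 8 weeks old, received 3 intraperitoneal injections of 1 mg tamoxifen and were sampled 6 days after the treatment, and the epidermis was scratched off frozen skin, with 1 Affymetrix array per mouse. Because only the Alox12b fl/fl Cre mice held Cre, loss of Alox12b and presence of active Cre cannot be told apart.

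Keratins are the intermediate filament proteins of epithelial cells, and each filament is built from obligate pairs of a type I and a type II keratin. In epidermis, basal keratinocytes make Krt5 with Krt14 and, in part of the basal layer and in the hair follicle bulge, Krt15. Cells that leave the basal layer switch to Krt1 with Krt10, and Krt2 and Krt77 are further type II keratins of the suprabasal layers. Type II genes lie together on mouse chromosome 15 and type I genes on chromosome 11.

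The start regions of 6 of the 8 genes were in the RefSeq table of build GRCm38.p6, with no entry used for Krt1 and Krt15. Those of 4 members are shown because Krt2 and Krt77 fell most, Krt10 did not pass the test and Krt78 rose. Each runs from 250 bases before to 50 bases after the annotated start, 5′ to 3′ on the gene's strand (minus for all 4), with capitals marking a TATA-type run of letters (TATATA, or the variant spelled ATAAAA) that begins 20 to 40 bases before the start on the gene's strand.
Krt2 (chr15:101818120-101818419): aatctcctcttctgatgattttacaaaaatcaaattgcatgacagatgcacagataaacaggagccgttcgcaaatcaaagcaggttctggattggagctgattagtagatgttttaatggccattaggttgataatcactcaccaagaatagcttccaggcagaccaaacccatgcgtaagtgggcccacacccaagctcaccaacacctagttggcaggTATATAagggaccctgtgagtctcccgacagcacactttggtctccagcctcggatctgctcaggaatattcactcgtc
Krt77 (chr15:101869656-101869955): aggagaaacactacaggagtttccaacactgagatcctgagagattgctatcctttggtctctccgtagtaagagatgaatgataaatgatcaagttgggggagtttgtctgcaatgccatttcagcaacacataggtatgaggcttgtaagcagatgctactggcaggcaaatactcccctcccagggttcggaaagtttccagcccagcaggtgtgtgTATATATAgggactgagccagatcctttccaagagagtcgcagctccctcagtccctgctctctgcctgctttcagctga
Krt10 (chr11:99389315-99389614): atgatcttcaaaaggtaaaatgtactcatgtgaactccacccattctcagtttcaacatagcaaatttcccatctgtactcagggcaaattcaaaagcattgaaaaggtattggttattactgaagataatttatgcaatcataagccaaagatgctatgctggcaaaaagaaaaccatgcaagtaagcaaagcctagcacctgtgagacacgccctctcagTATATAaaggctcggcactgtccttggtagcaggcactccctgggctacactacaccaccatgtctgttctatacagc
Krt78 (chr15:101954238-101954537): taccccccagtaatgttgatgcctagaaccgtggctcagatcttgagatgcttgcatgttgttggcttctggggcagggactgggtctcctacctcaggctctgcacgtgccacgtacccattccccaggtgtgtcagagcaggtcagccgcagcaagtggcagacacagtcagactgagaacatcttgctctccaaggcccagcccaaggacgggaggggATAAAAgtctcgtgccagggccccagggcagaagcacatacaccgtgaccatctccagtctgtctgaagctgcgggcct

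TATATA stood in that place in Krt2, Krt77 and Krt10, and ATAAAA in Krt78 and Krt5. These letters were chosen after the sequences were read. Among all 32851 start regions of the table, 0.95% held TATATA and 1.74% held ATAAAA there. TATATA was thus shared by the lowered Krt2 and Krt77 and by Krt10, which did not pass the test. Over whole windows on both strands, the motif of Gata factors, AGATAA, was found in Krt2 and Krt10 (11.2% of all windows). The C/EBP-type motif TTNNGCAA was found in Krt77 and Krt10 (10.8%), and CACCC, read by Klf and Sp factors, in Krt2, Krt10, Krt5 and Krt14 (57.5%). TGGGAA, an Rbpj-type motif, was found in Krt10 and Krt14 (25.6%). GCCNNNGGC (AP-2 type, 16.6%) and TGANTCA (AP-1 type, 7.81%) were in none of the 6 windows, which says only that these letters are absent there. Matches of different motifs did not overlap, TATATA matched at overlapping places in Krt77, and no motif searched was held by Krt2 and Krt77 alone.

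Values are log2 values as deposited, and differences are Alox12b fl/fl Cre minus Alox12b fl/fl on that scale ± SE from limma, with p-values adjusted by Benjamini and Hochberg over all 45037 probe sets. A gene is said to have risen or fallen where the adjusted p was under 0.05. Array medians were 4.34 to 4.42 and the highest values 13.47 to 13.53, and no read depth applies to arrays, whose number limits the precision. The first principal component (63.4% of the variance) placed Alox12b fl/fl Cre arrays 1 to 4 at 44.9 to 55.8 and array 5 at 25.3, against -63.0 to -48.6 for Alox12b fl/fl. Alox12b read 10.07, 10.17, 10.04, 9.67 and 9.50 on the Alox12b fl/fl Cre arrays, against 9.40, 9.33, 9.20 and 9.19 on the Alox12b fl/fl arrays. It was higher by 0.61 ± 0.14 (limma adjusted p = 0.00694), so its 1 probe set does not show the labelled inactivation. The sources used here do not say whether that probe set lies in the floxed part, and the groups are therefore named by their labels. Krt5, Krt14, Krt1 and Krt10 were at or above percentile 99.5 of all probe sets on every array, so the keratinocyte markers of the labelled tissue were present. Dermal fibroblast transcripts were present too, with 14 of 16 markers lower and 1 higher, against 18.9% lower and 15.5% higher among all genes. Their summed level (log2 of the summed linear values) was 13.5 to 14.3 on Alox12b fl/fl Cre arrays. On Alox12b fl/fl arrays it was 14.3 to 15.1.

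The keratins of Alox12b fl/fl Cre epidermis changed very unequally. Krt2, Krt77 and Krt15 fell, Krt14 and Krt78 rose, and Krt5, Krt1 and Krt10 did not pass the test. The differences ran from -7.09 for Krt77 to 0.52 for Krt78. Of the 8 members 5 passed, against a background of 34.4% of all 18193 genes (15.5% higher and 18.9% lower) and 28.6% of all probe sets. In 6 of the 8 the groups did not overlap, against 31.6% of all genes. The median difference of the 8 was -0.17, against 0.031 over all genes. In whole tissue, fewer cells of a type and less RNA per cell cannot be told apart.

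**Figure D1:**
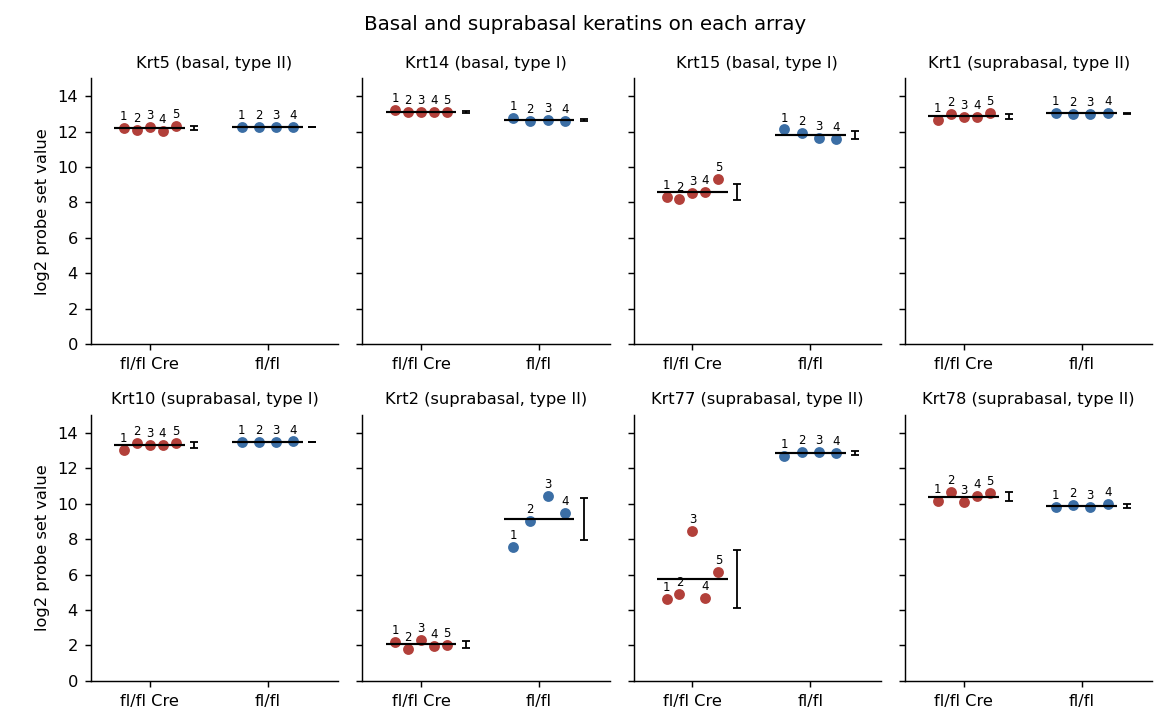
Log2 probe set values of the 8 keratins on each array, by the brightest probe set of each gene, with Alox12b fl/fl Cre (red, left) and Alox12b fl/fl (blue, right). Numbers are replicate numbers, horizontal lines are means and bars at the side are SD (n = 5 and 4). Krt2, Krt77 and Krt15 are far lower on every Alox12b fl/fl Cre array, while Krt5, Krt1 and Krt10 lie close together in both groups.

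Krt5, the type II keratin of basal cells, read 12.23, 12.07, 12.28, 12.05 and 12.31 on the Alox12b fl/fl Cre arrays, against 12.28, 12.26, 12.28 and 12.24 on the Alox12b fl/fl arrays. The groups overlapped, and the Alox12b fl/fl Cre arrays spread more widely, over 0.26 against 0.041. The difference was -0.07 ± 0.07 (limma adjusted p = 0.492), with a 95% interval of -0.24 to 0.09.

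Krt14, the type I partner of Krt5, read 13.19, 13.08, 13.11, 13.12 and 13.08 on the Alox12b fl/fl Cre arrays, against 12.76, 12.59, 12.63 and 12.62 on the Alox12b fl/fl arrays by its brightest probe set. Every Alox12b fl/fl Cre array lay above every Alox12b fl/fl array. Krt14 rose by 0.47 ± 0.06, or 1.38-fold (limma adjusted p = 0.000445; two-sided exact permutation p = 0.00794, the smallest that splits of the 9 arrays can give). The suffix of this probe set marks that it can match related transcripts, and Krt16 and Krt17 rose in the same tissue. A second bright probe set without that mark read 12.99, 13.09, 13.06, 13.05 and 12.91 on the Alox12b fl/fl Cre arrays, against 12.55, 12.37, 12.33 and 12.36 on the Alox12b fl/fl arrays, and rose by 0.62 ± 0.07 (limma adjusted p = 0.000152). A dimmer probe set averaged 7.96 ± 0.68 on the Alox12b fl/fl Cre arrays and 7.61 ± 0.27 on the Alox12b fl/fl arrays (SD, n = 5 and 4) and did not pass, with 0.35 ± 0.30 (limma adjusted p = 0.417). Without Alox12b fl/fl Cre replicate 3, which read 6.79, its difference was 0.64 (limma adjusted p = 0.0121). The bright probe sets lay within 0.33 to 1.17 of the highest value of their array, where differences can be compressed, which was not tested. The Cre transgene of this group uses the keratin 14 promoter, and whether it adds to the Krt14 probe sets was not tested.

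Krt15, a type I keratin of basal cells and of the bulge of the hair follicle, read 8.31, 8.20, 8.56, 8.57 and 9.34 on the Alox12b fl/fl Cre arrays, against 12.12, 11.91, 11.65 and 11.60 on the Alox12b fl/fl arrays. No array came near the other group, and Alox12b fl/fl Cre replicate 5, the array closest to the Alox12b fl/fl arrays on the first principal component, had the highest value of its group. Krt15 fell by 3.22 ± 0.21 and was 9.34-fold lower (limma adjusted p = 5.01e-06; two-sided exact permutation p = 0.00794). It ranked 61st of 18193 genes by absolute difference.

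Of 15 genes listed as markers of the bulge and hair germ, 7 fell, 1 rose and 7 did not pass. Among all genes 18.9% were lower and 15.5% higher. The median of the 15 listed genes was -0.44. Their summed level was 10.8 to 11.3 on Alox12b fl/fl Cre arrays, against 12.0 to 12.2 on Alox12b fl/fl arrays. Lgr6, a receptor of follicle stem cells, fell by 2.08 ± 0.23, and the transcription factor Nfatc1 by 0.97 ± 0.10. Cd34, listed as a marker of bulge cells, fell by 1.30 ± 0.22 (limma adjusted p = 0.00143). In which cells of the scratched epidermis Cd34 fell was not tested. Tcf3 and Tcf4, also counted as fallen, are by these symbols genes of E proteins and do not mark the bulge. Nfatc1 had a further probe set of opposite sign. Postn fell by 1.94 ± 0.25 and Gas1 by 0.44, and these were the brightest genes of the list and weigh most in the summed level. Fibroblasts also make both, and the fibroblast markers, with 14 of 16 lower, had a median of -0.96. Sox9, at -0.47 ± 0.18, did not pass (limma adjusted p = 0.0771). Lgr5 and Lhx2, also markers of bulge and germ cells, were dim and did not pass. Lgr5 averaged 3.16 on Alox12b fl/fl Cre arrays and 3.03 on Alox12b fl/fl arrays, and Lhx2 averaged 2.35 on Alox12b fl/fl Cre arrays and 2.57 on Alox12b fl/fl arrays. The growth factor Fgf18 rose by 0.28 ± 0.08. The part of follicle cells and fibroblasts in the Krt15 result was not tested.

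Krt1, the first type II keratin of suprabasal cells, read 12.67, 12.97, 12.80, 12.82 and 13.03 on the Alox12b fl/fl Cre arrays, against 13.07, 12.97, 13.00 and 13.05 on the Alox12b fl/fl arrays. Alox12b fl/fl Cre replicate 1 was lowest, and replicates 2 and 5 lay within the Alox12b fl/fl range or next to it. The difference was -0.17 ± 0.08 (limma adjusted p = 0.161), with a 95% interval of -0.35 to 0.017.

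Krt10, the type I partner of Krt1, read 13.05, 13.44, 13.30, 13.33 and 13.44 on the Alox12b fl/fl Cre arrays, against 13.50, 13.47, 13.50 and 13.51 on the Alox12b fl/fl arrays. All Alox12b fl/fl Cre arrays lay below the Alox12b fl/fl arrays, and replicate 1 was again lowest. The difference was -0.18 ± 0.09 (limma adjusted p = 0.142; two-sided exact permutation p = 0.0317), with a 95% interval of -0.37 to 0.0090. It passed after quantile normalisation (-0.26, limma adjusted p = 0.0343) and after cyclic loess (-0.24, limma adjusted p = 0.0473). Krt10 was the brightest probe set of all 45037 on each Alox12b fl/fl array, where differences can be compressed, which was not tested.

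Krt2, a type II keratin of the upper epidermis, read 2.22, 1.82, 2.32, 1.95 and 2.03 on the Alox12b fl/fl Cre arrays, against 7.57, 9.03, 10.42 and 9.46 on the Alox12b fl/fl arrays. The Alox12b fl/fl Cre values lay at percentiles 4.24 to 15.2 of all probe sets of their array, among the dimmest, and the Alox12b fl/fl values at percentiles 83.9 to 98.1. The spread was in the Alox12b fl/fl mice, over 2.85, with replicate 1 lowest and replicate 3 highest. Krt2 fell by 7.05 ± 0.44, or 133-fold lower (limma adjusted p = 3.88e-06; two-sided exact permutation p = 0.00794). This fold depends on how background is read. With values under the 25th percentile of each array raised to that percentile Krt2 fell by 6.38 and was 83.2-fold lower, and with the array median as the floor it fell by 4.76 and was 27.0-fold lower (limma adjusted p = 7.43e-05 and 0.000400). These floors were chosen after seeing the data.

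Krt77, a type II keratin of suprabasal cells, read 4.61, 4.93, 8.45, 4.66 and 6.13 on the Alox12b fl/fl Cre arrays, against 12.69, 12.94, 12.90 and 12.84 on the Alox12b fl/fl arrays. Here the spread was in the Alox12b fl/fl Cre mice, over 3.84 against 0.25, with replicate 3 far above replicates 1, 2 and 4 and replicate 5 between them. Even replicate 3 lay more than 4 log2 units under the lowest Alox12b fl/fl array. Krt77 fell by 7.09 ± 0.67, or 136-fold lower (limma adjusted p = 4.44e-05; two-sided exact permutation p = 0.00794), and without Alox12b fl/fl Cre replicate 3 it fell by 7.76 and was 217-fold lower. Its lowest values stood at percentile 52.8 of their array, and neither floor changed its difference. By absolute difference Krt77 ranked 1 of 18193 genes, with the deposited values and with either floor. Krt2 ranked 2 with the deposited values, 3 with the floor at the 25th percentile and 9 with the floor at the median. Of all genes, 3.34% fell by at least 2-fold.

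Krt78, another type II keratin of suprabasal cells, read 10.17, 10.67, 10.09, 10.43 and 10.63 on the Alox12b fl/fl Cre arrays, against 9.79, 9.92, 9.81 and 9.98 on the Alox12b fl/fl arrays. The groups came close but did not overlap. Krt78 rose by 0.52 ± 0.13, or 1.44-fold (limma adjusted p = 0.0105; two-sided exact permutation p = 0.0159).

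The unequal change was tested within arrays, as the difference between the values of 9 pairs of members, compared between groups by two-sided exact permutation tests adjusted over the 9 pairs. Such a change shows only that the 2 keratins did not move alike. For the suprabasal partners Krt1 and Krt10 no unequal change was found: Krt1 minus Krt10 changed by 0.016 ± 0.031 (exact permutation adjusted p = 0.786), with an exact 95% interval of -0.06 to 0.11. The basal partners did part, and Krt5 minus Krt14 changed by -0.54 ± 0.07 (exact permutation adjusted p = 0.0119), lower on all 5 Alox12b fl/fl Cre arrays. Krt10 minus Krt14 changed by -0.65 ± 0.10 and Krt15 minus Krt14 by -3.69 ± 0.23, each lower on all 5 Alox12b fl/fl Cre arrays (exact permutation adjusted p = 0.0119 for each). The type II pair Krt1 minus Krt5 changed by -0.09 ± 0.09 (exact permutation adjusted p = 0.449), with an exact 95% interval of -0.34 to 0.12.

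Among the suprabasal type II keratins, Krt2 and Krt77 parted from Krt1 while Krt78 went the other way. Krt2 minus Krt1 changed by -6.88 ± 0.62, Krt77 minus Krt1 by -6.92 ± 0.73 and Krt78 minus Krt1 by 0.69 ± 0.09 (exact permutation adjusted p = 0.0119 for each, with no overlap of the groups). With Krt2 floored at the 25th percentile or the median of each array, Krt2 minus Krt1 changed by -6.21 or -4.59 (exact permutation adjusted p = 0.0119 for each), while Krt77 minus Krt1 was the same under both floors. Krt77 minus Krt2 changed by -0.04 ± 0.87 (exact permutation adjusted p = 0.976), with an exact 95% interval of -2.09 to 2.11 on the deposited values. Since Krt2 was among the dimmest probe sets on the Alox12b fl/fl Cre arrays, this difference depends on the floor. It was -0.71 with the floor at the 25th percentile (exact permutation adjusted p = 0.554) and -2.33 with the floor at the median (exact permutation adjusted p = 0.0714), so whether Krt2 and Krt77 fell alike cannot be read from these arrays.

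**Figure D2:**
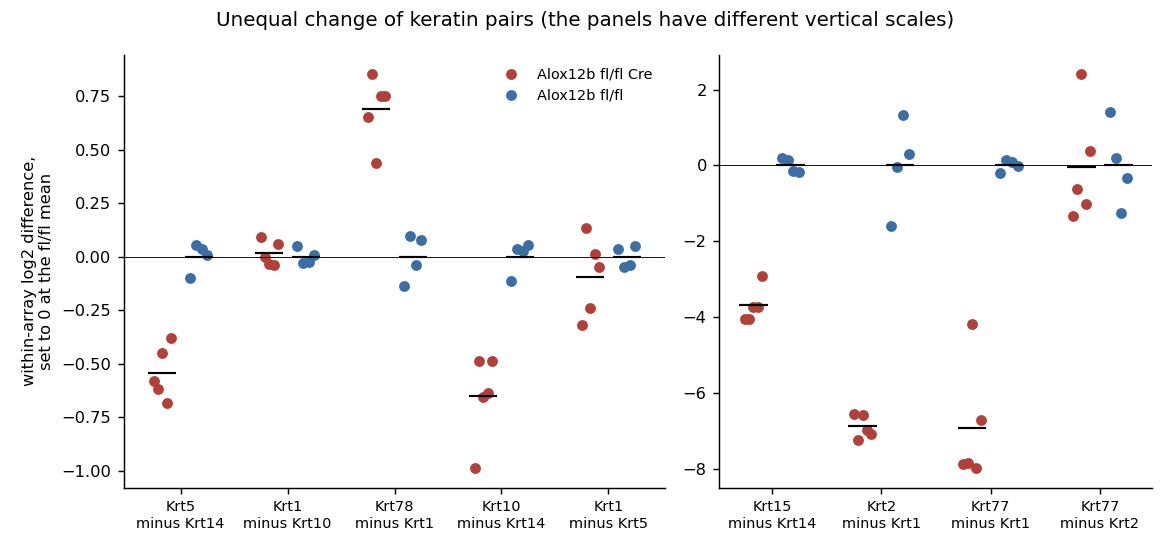
Within-array log2 difference of each keratin pair, set to 0 at the Alox12b fl/fl mean, with 1 point per array for Alox12b fl/fl Cre (red, left of each pair) and Alox12b fl/fl (blue, right) and lines at the means. The left panel holds the pairs that changed by less than 1, the right panel the others with Krt77 minus Krt2. Krt1 minus Krt10 stays at 0 in both groups, and Krt15, Krt2 and Krt77 part from their pair members by several log2 units.

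Gene order set these changes beside each other. Along chromosome 15 of the RefSeq annotation the keratin genes run Krt73, Krt2, Krt1, Krt77, Krt76, with Krt77 next to Krt1, so that Krt1 at -0.17 stood between Krt2 at -7.05 and Krt77 at -7.09. Krt73, a follicle keratin on the other side of Krt2, fell by 1.03 ± 0.27 (limma adjusted p = 0.0171), with overlap of the groups, and Krt76, a keratin of oral epithelium next to Krt77, was dim and differed by 0.0082 ± 0.12 (limma adjusted p = 0.967). Farther on, Krt79 fell by 0.90 ± 0.16 and its neighbour Krt78 rose. On chromosome 11, Krt15 at -3.22 lay between Krt13 at 0.17 and Krt19 at -0.03, both dim and not passing, and Krt14 at 0.47 was followed by Krt16 and Krt17.

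**Figure D3:**
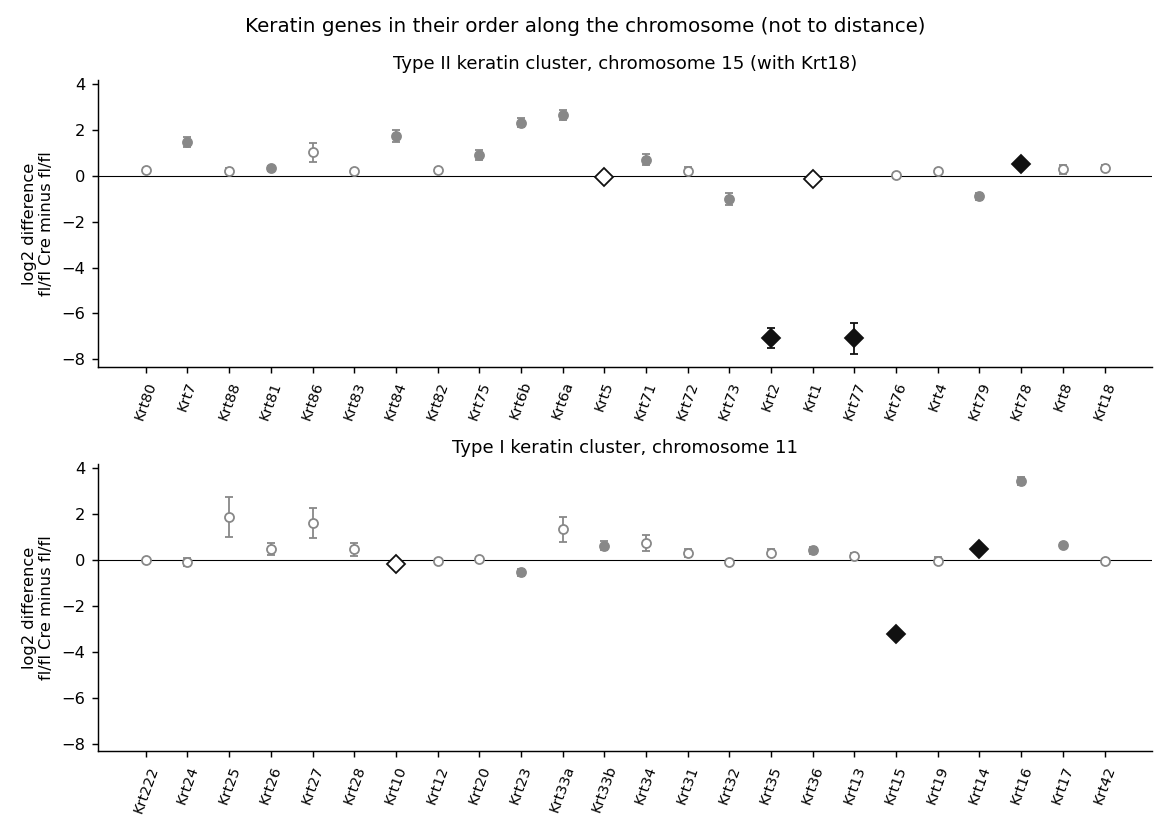
Log2 difference (Alox12b fl/fl Cre minus Alox12b fl/fl, bars SE) of each measured keratin gene in its order along chromosomes 15 and 11, not to distance. Black diamonds are the 8 basal and suprabasal keratins, grey circles other keratins, and filled symbols have an adjusted p under 0.05. Krt2 and Krt77 lie far below 0 on either side of Krt1, and Krt15 is the lowest type I gene.

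Of 40 other measured keratin genes, 11 rose and 3 fell (35.0%, against 34.4% of all genes), with a median of 0.31. Without Alox12b fl/fl Cre replicate 4, without Alox12b fl/fl replicate 2 or without Alox12b fl/fl replicate 3, 7 rose. All 4 keratins of wounded epidermis rose, Krt16 by 3.43 ± 0.17, Krt6a by 2.65 ± 0.22, Krt6b by 2.31 ± 0.18 and Krt17 by 0.66 ± 0.07. Of 7 simple epithelial keratins Krt7 rose by 1.47 ± 0.21, Krt23 fell by 0.54 ± 0.14 and 5 did not pass. Of 21 keratins of the follicle and hair shaft 6 rose and 2 fell (38.1% called, against 34.4% of all genes). The number that rose was 2 to 7 when single arrays were left out, being 2 or 3 without any 1 of Alox12b fl/fl Cre replicates 2, 3 and 4 or of the 4 Alox12b fl/fl arrays, 2 with sex as a covariate, 3 with the filter at the median and 12 with array weights. Among them were rises of 1.72 ± 0.25 for the hair keratin Krt84 and 0.89 ± 0.21 for Krt75 of the companion layer. None of 5 mucosal, corneal and palmoplantar keratins passed by limma with Benjamini-Hochberg adjustment, and 1 had an unadjusted p under 0.05, namely Krt4 with 0.21 ± 0.07 (limma adjusted p = 0.0569). In that list 1 keratin rose under quantile normalisation, cyclic loess, subtraction of array medians, the filter at the median or array weights, and without Alox12b fl/fl replicate 4.

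For the 3 strongly lowered members, the genes with the closest values were sought. Closeness was the root mean square difference of log2 deviations from the Alox12b fl/fl mean over the 9 arrays. The group difference was not removed, so closeness largely reflects a fall of like size. For Krt77 the nearest was Skint10, of the Skint family of skin and thymus surface proteins, at 0.92. Skint10 read 2.27, 2.34, 5.43, 2.48 and 4.01 on the Alox12b fl/fl Cre arrays, against 8.85, 9.39, 9.40 and 9.18 on the Alox12b fl/fl arrays. As for Krt77, replicate 3 was highest and replicate 5 next. The epidermal lipoxygenase gene Alox12e followed at 1.68, with replicate 5 highest at 6.70, and Dapl1 at 1.74. For Krt2 the nearest gene outside the 8 was also Skint10, at 1.33. Then came Alox12e at 1.52 and the calcium-binding protein gene Tesc at 1.68. Krt77 itself lay nearer, at 1.19. On the Alox12b fl/fl Cre arrays Krt2 stayed at 1.82 to 2.32, while Skint10 ranged from 2.27 to 5.43.

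For Krt15 the nearest gene was Clca3a1, of the family of calcium-activated chloride channel regulators, at 0.20. Clca3a1 read 6.09, 6.09, 5.94, 6.37 and 6.99 on the Alox12b fl/fl Cre arrays, against 9.49, 9.44, 9.28 and 9.52 on the Alox12b fl/fl arrays. Its highest Alox12b fl/fl Cre value was on replicate 5, as for Krt15. The sugar transporter gene Slc2a12 lay at 0.33 and the kinase gene Nuak1 at 0.35. These likenesses are descriptions of 9 arrays and were not tested.

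**Figure D4:**
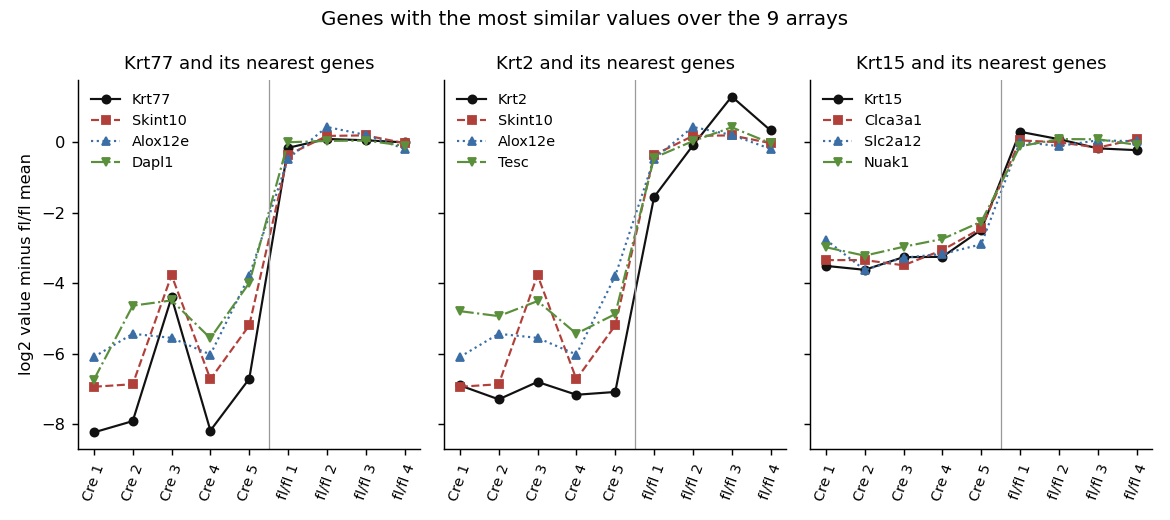
Log2 values minus the Alox12b fl/fl mean on the 5 Alox12b fl/fl Cre arrays (left of the grey line) and the 4 Alox12b fl/fl arrays (right) for Krt77, Krt2 and Krt15, each with its 3 nearest genes. Lines join the values of 1 gene and imply no order of mice. Krt77 and Skint10 share the higher values on Cre replicates 3 and 5, while Krt2 stays low on all 5.

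Among genes whose proteins anchor, bundle or chaperone keratin filaments, 6 of 28 rose, 7 fell and 15 did not pass (46.4% called, against 34.4% of all genes) and a median of 0.068. The desmosomal cadherins Dsg1b, Dsc1 and Dsc2 rose by 1.13 ± 0.13, 0.64 ± 0.08 and 2.30 ± 0.30. Dsg2 fell by 1.70 ± 0.16 and Dsc3 by 0.25 ± 0.07, and Dsg1a, at -0.29 ± 0.12, did not pass (limma adjusted p = 0.102). The stratifin gene Sfn, whose product binds phosphorylated keratins, rose by 0.70 ± 0.12. The plakins Dst and Plec, which tie keratin filaments to hemidesmosomes, fell by 1.11 ± 0.10 and 0.86 ± 0.08, and the hemidesmosomal collagen Col17a1 fell by 0.91 ± 0.14. Desmoplakin (Dsp), the main anchor of keratins at desmosomes, named after its value was seen, differed by 0.0012 (limma adjusted p = 0.991).

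Of 47 transcription and chromatin factors that act on keratin genes or on keratinocyte differentiation, 13 rose, 17 fell and 17 did not pass (63.8% called, against 34.4% of all genes), with a median of -0.05. Satb1, a chromatin organiser, fell by 2.73 ± 0.19 (limma adjusted p = 6.52e-06), with means of 4.79 ± 0.40 on the Alox12b fl/fl Cre arrays and 7.52 ± 0.19 on the Alox12b fl/fl arrays (SD, n = 5 and 4). Satb1 is also abundant in T cells, and 6 of 8 T cell markers were lower, against 18.9% of all genes. Their summed level was 8.72 to 9.25 on Alox12b fl/fl Cre arrays, against 10.2 to 10.6 on Alox12b fl/fl arrays. The part of T cells in the Satb1 value was not tested. Gata3, which T cells also express, fell by 1.50 ± 0.16. Rbpj, which carries the Notch signal to its targets, fell by 0.93 ± 0.09 and the glucocorticoid receptor gene Nr3c1 by 0.90 ± 0.09, with 1 of 6 Nr3c1 probe sets of opposite sign. The epithelial Ets factor Ehf rose by 1.42 ± 0.11, Ovol1 by 0.995 ± 0.127, Hopx by 0.95 ± 0.14 and Prdm1 by 0.86 ± 0.11. Trp63, the regulator of basal keratinocyte identity, fell by 0.35 ± 0.09 (limma adjusted p = 0.0115).

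Other genes of the same layers were read beside the keratins. Some stand in several lists, so the counts are not separate. Of those called, Col17a1, Dst and Dsc1 were also counted among the filament genes above, and Trp63 among the factors. Of 11 genes of basal cell adhesion and identity 2 rose, 4 fell and 5 did not pass (54.5% called, against 34.4% of all genes), with a median of 0.0090. The cadherin Cdh3 rose by 0.995 ± 0.129 and the integrin Itga3 by 0.49 ± 0.09, while Lamb3, a laminin chain, fell by 0.45 ± 0.09. Of 16 genes of spinous and granular cells 4 rose, 1 fell and 11 did not pass, with a median of 0.12, and the 31.2% called lay near the share of all genes. Tgm1, which crosslinks the cornified envelope, rose by 1.23 ± 0.13, corneodesmosin (Cdsn) by 0.76 ± 0.09 and the calmodulin-like Calm4 by 0.23 ± 0.06, and sciellin (Scel) fell by 0.77 ± 0.11. Without Alox12b fl/fl Cre replicate 1, 9 of the 16 rose. No gene of these 2 lists came near the differences of Krt2 and Krt77.

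**Figure D5:**
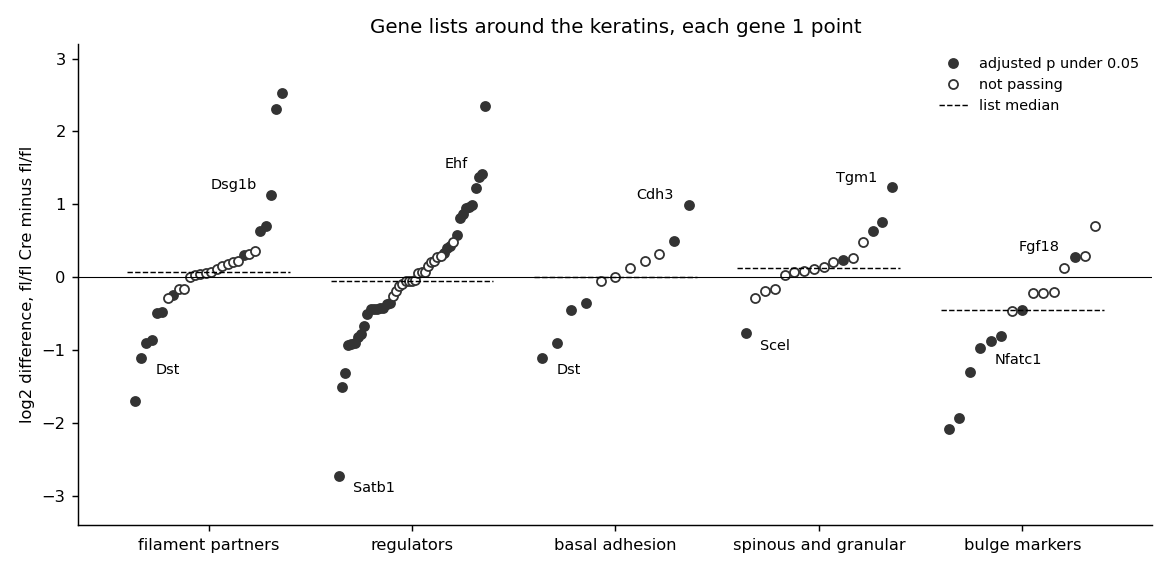
Log2 difference (Alox12b fl/fl Cre minus Alox12b fl/fl) of each measured gene of 5 lists, sorted within the list. Filled points passed an adjusted p of 0.05, dashed lines are list medians, and the gene with the lowest adjusted p in each direction is named. Medians lie near 0 except for the bulge markers at -0.44, and the largest fall is that of Satb1 at -2.73.

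Markers of other cells that a scratched sheet can hold were read beside the keratins. Of all genes, 15.5% were higher and 18.9% lower. Melanocyte markers were higher in 7 of 8 (summed level 8.76 to 9.60 on Alox12b fl/fl Cre arrays, against 8.26 to 8.47 on Alox12b fl/fl arrays). Langerhans cell markers were lower in 5 of 8, but in 2 with sex as a covariate, in 2 without any 1 of Alox12b fl/fl Cre replicates 2, 3 and 4 or Alox12b fl/fl replicates 2, 3 and 4, and in 3 without Alox12b fl/fl replicate 1. Macrophage markers lower in 4 and higher in 1 of 8. Neutrophil markers were higher in 5 of 9, led by S100a9 and S100a8, which keratinocytes also make. The others that were higher were Mmp8 by 1.46 ± 0.30, Ltf by 0.57 ± 0.17 and Cxcr2 by 0.34 ± 0.11. Elane, Ngp and Camp were dim and did not pass, nor did Csf3r. Without any 1 of Alox12b fl/fl replicates 2, 3 and 4, and with the filter at the median, 3 neutrophil markers were higher. Upper follicle markers had 3 of 8 higher and 3 lower. Sebaceous markers had 2 of 10 higher and 1 lower, and sweat gland markers 2 of 10 higher and 1 lower (30% called in each). Endothelial markers had 1 of 9 higher and 1 lower (22.2% called). The shares called in the sebaceous, sweat gland and endothelial lists lay near or under the 34.4% of all genes. Muscle markers had 2 of 12 higher, Tnni2 and Mb of striated muscle, and 5 lower. Those lower were Acta2, Myh11, Tagln and Cnn1 of smooth muscle, and Des. The smaller of these counts, of 1 to 3 genes, moved under several alternatives, and some larger ones moved too. At an adjusted p of 0.01, 4 melanocyte markers were higher and 2 muscle markers lower. Without probe sets that can match several transcripts, 4 melanocyte markers were higher. The part of these cells in the keratin results was not tested.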

How the data were processed

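Total RNA of epidermis from 9 mice was hybridised to Affymetrix Mouse Genome U430 2.0 arrays after 3′ labelling, 1 array per mouse, per the labels' protocols. Per array the authors deposited 45037 probe set summaries as log2 values. The submitters' processing notes name affy, while background correction and normalisation are not stated, and base 2 was read from the highest values. All 9 columns were used unfiltered.

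The platform annotation gave 34945 probe sets 1 symbol, 932 several and 9160 none, and the brightest probe set on average stood for each of the 18193 genes. Groups were taken from sample titles and compared with limma 3.58.1 in R 4.3.3 with group as the only term, which left 7 residual degrees of freedom. Pairs used exact permutation tests over all splits of the arrays, and their intervals hold the shifts not rejected at 0.05. The limma step was tested on simulated arrays. Named genes were all 8 members, up to 4 genes per list and direction with the lowest adjusted p, and the 3 nearest genes of each member that changed at least 2-fold. For brevity some were left out, and some further list genes were named after their values were seen. Members and lists were chosen with earlier results of these data known. The sex of each mouse was inferred from Xist. Alox12b fl/fl Cre mice were 3 females and 2 males, and Alox12b fl/fl mice 1 female and 3 males. The main fit held no term for this imbalance. Sex was used as a covariate in 1 alternative, for within-sex values and for its interaction with group. No batch is given by the labels. Replicate numbers were checked as pairs: same-numbered arrays deviated with correlations of -0.27 to 0.078, so they were not treated as pairs. Alternatives were other normalisations, filters, variance models, array weights, sex, a replicate block, other probe set rules, a stricter threshold and leaving out each array.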

Additional observations from a re-analysis of the deposited data

Results flagged for a closer look

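The highest or lowest array stood apart from its group in 7 of 80 groups of values examined by Dixon's gap test; chance alone gives about 1 in 20. The dim Krt14 probe set read 8.02 on Alox12b fl/fl replicate 1, against 7.45 to 7.50 on the other Alox12b fl/fl arrays. Krt15 minus Krt14 was -3.75 on Alox12b fl/fl Cre replicate 5, the next being -4.56. The median deviation of the simple epithelial keratins from the Alox12b fl/fl mean was 0.49 on Alox12b fl/fl Cre replicate 4 and 0.10 on Alox12b fl/fl replicate 1. That of the regulators was 0.044 on Alox12b fl/fl Cre replicate 3, and that of the spinous and granular genes was lowest on Alox12b fl/fl Cre replicate 1, at -0.098. That of the sweat gland markers was 0.56 on Alox12b fl/fl Cre replicate 4.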

How the results depend on the processing

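Krt2, Krt77 and Krt15 kept their direction and their call under each of 14 alternatives and without each array in turn, as did Krt14; Krt78 lost its call at an adjusted p of 0.01 (0.52, limma adjusted p = 0.0105), which left 1 member higher. Krt10 gained a call with quantile normalisation (-0.26) and cyclic loess (-0.24). With the replicate block, 2 members were higher and 3 lower and no member's call changed. At an adjusted p of 0.01, 2932 probe sets were higher and 4377 lower, against 5698 and 7202; leaving out 1 array gave 4161 to 5931 higher and 5753 to 7381 lower. The other keratins had 20 higher with array weights, 7 with sex as a covariate, 7 higher and 1 lower at 0.01, and 7 to 13 higher without single arrays. Spinous and granular genes had 2 lower with quantile normalisation and 3 to 9 higher without single arrays, and basal adhesion genes had 2 lower without probe sets that can match several transcripts. Without single arrays the untested signs of Krt1 minus Krt10 (-0.0024 to 0.032) and Krt77 minus Krt2 (-0.65 to 0.43) turned; neither passed. The cause of these shifts was not tested. Krt2 differed by -7.62 within males and -5.47 within females, where the only Alox12b fl/fl female was the array with the lowest Krt2 of its group, so sex and array cannot be told apart (interaction 2.15, limma adjusted p = 0.832). Krt77 differed by -8.13 within males and -6.28 within females (interaction 1.85, limma adjusted p = 0.941). The Alox12b fl/fl Cre arrays with the highest Krt77, replicates 3 and 5, were both from females. Replicate 4, also from a female, read 4.66, against 4.61 and 4.93 on replicates 1 and 2 from males. Bright keratins lie near the top of the array range and Krt2 near its bottom, which can limit their folds.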
